A study of Mus musculus with 27 samples.

Results

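Severe and mild ischemic injury of the mouse kidney were compared directly, without the sham kidneys. The 3 kidneys clamped for 30 min (labelled uIRIx30min-24h) were set against the 3 clamped for 16 min (uIRIx16min-24h), which are 6 of the 27 kidneys in the series. The members were taken by the ischemia time in their labels. All 6 came from wild-type C57BL/6 mice whose left renal pedicle was clamped at 37 °C while the right kidney was removed, and all were collected 24 h after reperfusion. By their labels the groups differ in the minutes of clamping. Sex and age are not given in the sources used here, and each kidney is from a different mouse. The 3 sham kidneys (0 min) and the 18 kidneys clamped for 18 to 28 min were used to estimate the spread and, for levels only, as points of reference.

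Whole-kidney RNA was sequenced, and the deposited values are FPKM, fragments scaled to gene length and to sequencing output, so that levels can be compared between genes. Read counts are not among these values, so the depth is unknown and the precision comes from the 3 kidneys per group. In the 6 kidneys the FPKM values summed to between 512453 and 548717, and 12098 to 12362 genes reached 1 FPKM. The labelled tissue carried its own transcripts: all 55 proximal tubule carriers of the list were measured, and Kap, an androgen-regulated proximal tubule transcript, took 0.931% to 5.70% of the summed FPKM. In whole tissue, fewer cells of a type and less RNA per cell cannot be told apart.

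The proximal tubule reabsorbs most of the filtered solute and burns fatty acids to pay for it. Its straight segment lies in the outer stripe of the outer medulla, where oxygen is scarce, and is the part of the nephron that ischemia injures most readily. Surviving tubule cells are known to lose brush border, transporters and mitochondria, to switch on stress and repair genes such as Havcr1, Lcn2 and Krt20, and to re-enter the cell cycle in the following days. Whole-kidney RNA after a short and a long clamp was read here for each of these programs.

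A gene was called a differentially expressed gene (DEG) where the absolute log2 fold change exceeded 1 and the Benjamini-Hochberg adjusted p of limma, taken over all 18188 genes tested, was under 0.05. By this rule 1133 genes were DEGs (6.23% of the genes tested), of which 466 were higher (2.56%) and 667 lower (3.67%) at 30 min than at 16 min. In what follows, FPKM values are listed in the order of replicates 1, 2 and 3, and changes are fitted log2 fold changes ± SE, 30 min minus 16 min. These understate the change of genes near or under 1 FPKM. They were fitted after quantile normalization, so in the most abundant genes they can also differ from the ratio of the printed FPKM values. The lower side also held the larger changes. A log2 fold change beyond 2 was seen in 65 higher and 145 lower DEGs, and one beyond 3 in 11 higher and 38 lower DEGs. Without the fold threshold, 7392 genes (40.6%) passed the adjusted p alone, 4099 upward (22.5%) and 3293 downward (18.1%). The list counts below, with and without the fold threshold, are to be read against these shares of all genes tested. The median over all genes tested was 0.01 and the quartiles were -0.16 and 0.21 on the log2 scale. On the quantile-normalized values, the 3 kidneys of one group did not overlap the 3 of the other in 7188 genes (39.5%). This held for 1090 of the 1133 DEGs, and counts of genes without overlap are on these values.

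**Figure D1:**
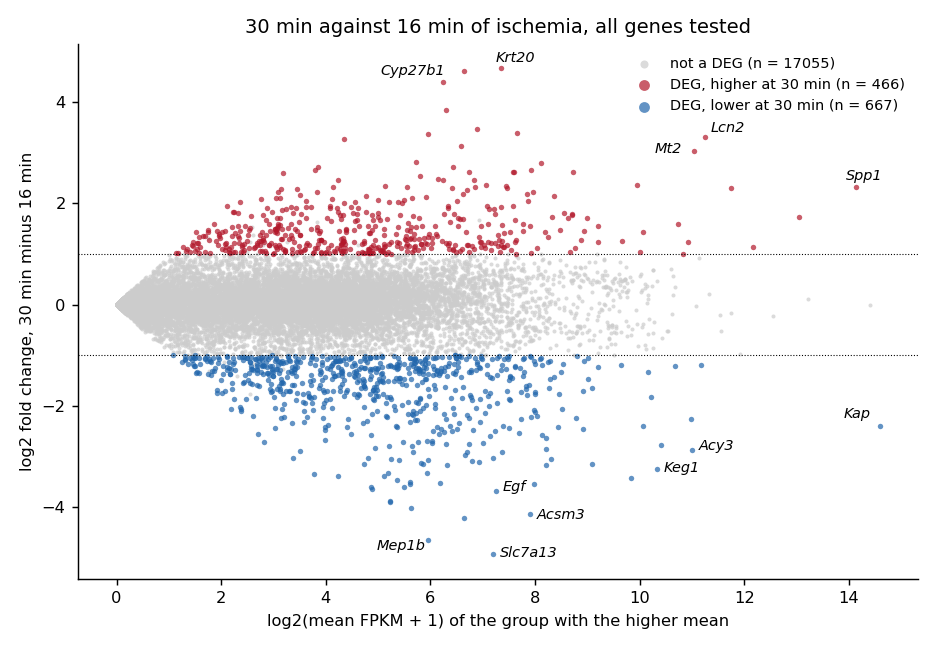
Each point is one of the 18188 genes tested, with the log2(FPKM + 1) level of the group with the higher mean on the x axis and the fitted log2 fold change, 30 min minus 16 min, on the y axis. The 466 DEGs higher at 30 min are red and the 667 lower are blue, the dotted lines stand at the fold threshold, and the lower DEGs reach further from 0 (Slc7a13, -4.93) than the higher ones (Krt20, 4.66).

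The 16 min kidneys were unlike each other, and this bears on many of the values that follow. Each kidney was placed on a scale where the 16 min mean of a DEG is 0% and its 30 min mean is 100%. Over the 1133 DEGs the median position of the 16 min kidneys was 2.48%, 15.3% and -17.6% for replicates 1, 2 and 3, and that of the 30 min kidneys was 92.3%, 101% and 108%. Replicate 3 was the least changed of the 16 min kidneys: it had the lowest value of the group in 348 of the 466 higher DEGs and the highest in 447 of the 667 lower DEGs. Replicate 2 was at the other end, with the highest value in 345 of the higher DEGs and the lowest in 403 of the lower DEGs. Without replicate 3 at 16 min 941 genes were DEGs (362 higher, 579 lower), and without replicate 2 at 16 min 1353 were (602 higher, 751 lower). These positions describe the kidneys that also chose the DEGs and carry no test.

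Krt20, a keratin of injured tubule epithelium at chr11:99428385-99438153 in build GRCm38.p6, was the DEG with the largest increase. It stood at 5.07, 15.1 and 1.97 FPKM at 16 min and 106, 231 and 150.3 FPKM at 30 min, and its log2 fold change was 4.66 ± 0.55 (SE, limma adjusted p = 1.3e-06). The lowest kidney at 30 min was above every kidney at 16 min, and Krt20 was at 0.553 FPKM on average in the sham kidneys. Sprr2f, a small proline-rich protein of epithelial cell envelopes, stood at 3.62, 12.3 and 0.22 FPKM at 16 min and 74.8, 127 and 93.1 FPKM at 30 min and rose by 4.6 ± 0.62 (adjusted p = 6.5e-06). Cyp27b1, the hydroxylase that makes active vitamin D, lies at chr10:127048246-127054884 and stood at 1.05, 3.96 and 4.03 FPKM at 16 min and 86.4, 83.6 and 55.2 FPKM at 30 min. Its change was 4.38 ± 0.71 (adjusted p = 5.3e-05), and the sham mean, 2.03 FPKM, lay within the range of the 16 min kidneys. Vdr, the receptor for the hormone that Cyp27b1 makes, fell from 70.8, 63.9 and 84.7 to 22.1, 34.1 and 34.3 FPKM (-1.25 ± 0.19, adjusted p = 2.7e-05).

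Akap12, a scaffold for protein kinase A, stood at 4.51, 5.87 and 4.3 FPKM at 16 min and 34.1, 74.6 and 74.3 FPKM at 30 min, with replicate 1 the lowest of the severe kidneys, and rose by 3.37 ± 0.26 (adjusted p = 8.4e-09). Fosl1, an AP-1 subunit, went from 0.59, 3.95 and 0.16 to 14.8, 19.8 and 23.4 FPKM, a rise of 3.27 ± 0.37 (adjusted p = 9.5e-07). In both genes the groups were apart. Plk3, a stress-activated polo-like kinase, rose by 2.81 ± 0.3, from 4.73, 6.45 and 9.47 to 37.7, 55.9 and 63.3 FPKM. Gsta1 and Gm3776, neighbouring glutathione transferase genes on chromosome 9, rose by 3.38 ± 0.52 and 3.46 ± 0.6, but near-identical copies can exchange reads in the counting, so the values of single genes are uncertain. Mt2, a metallothionein that binds zinc and copper, was among the most abundant DEGs, at 297, 425 and 60.9 FPKM at 16 min and 1592, 2300.4 and 2405 FPKM at 30 min, and rose by 3.03 ± 0.49.

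The largest decrease was that of Slc7a13 (chr4:19818727-19842213), an amino acid transporter subunit of the straight proximal tubule. It stood at 138, 72 and 230.0 FPKM at 16 min and 3.98, 1.99 and 4.3 FPKM at 30 min, and its log2 fold change was -4.93 ± 0.38 (adjusted p = 8.2e-09). All 3 severe kidneys were at a small remainder of the lowest mild kidney. Mep1b, a subunit of the brush border protease meprin, went from 58.6, 27.7 and 98 to 0.92, 1.22 and 1.47 FPKM (-4.64 ± 0.43, adjusted p = 7.3e-08). Acsm3, which activates medium-chain fatty acids, stood at 302, 129 and 289.9 FPKM at 16 min and 14.8, 7.4 and 15.8 FPKM at 30 min (-4.13 ± 0.35, adjusted p = 2.8e-08). Egf, the growth factor that the thick ascending limb and distal tubule release into urine, had the widest spread of the 12 largest decreases at 16 min, 90.8, 37 and 329.6 FPKM, and was at 4.29, 6.13 and 14.1 FPKM at 30 min (-3.69 ± 0.6, adjusted p = 5.9e-05). Even so, the 6 kidneys did not overlap.

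Slc22a22, an organic anion transporter that takes up prostaglandins, fell (-3.9 ± 0.33). Akr1c14, a steroid-metabolizing aldo-keto reductase, fell (-3.87 ± 0.4), as did Ldc1, a leucine decarboxylase (-3.61 ± 0.27). Nat8f6 and Nat8f1, acetyltransferases of a gene cluster on chromosome 6, fell (-4.2 ± 0.26 and -3.53 ± 0.19). Serpina1b, an antitrypsin gene with several close copies, fell (-3.59 ± 0.33). Mettl7a2 and Methig1 fell (-4.01 ± 0.35 and -3.63 ± 0.34); RefSeq gives them the same start on chromosome 15, so the genes overlap and the pair is not independent.

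**Figure D2:**
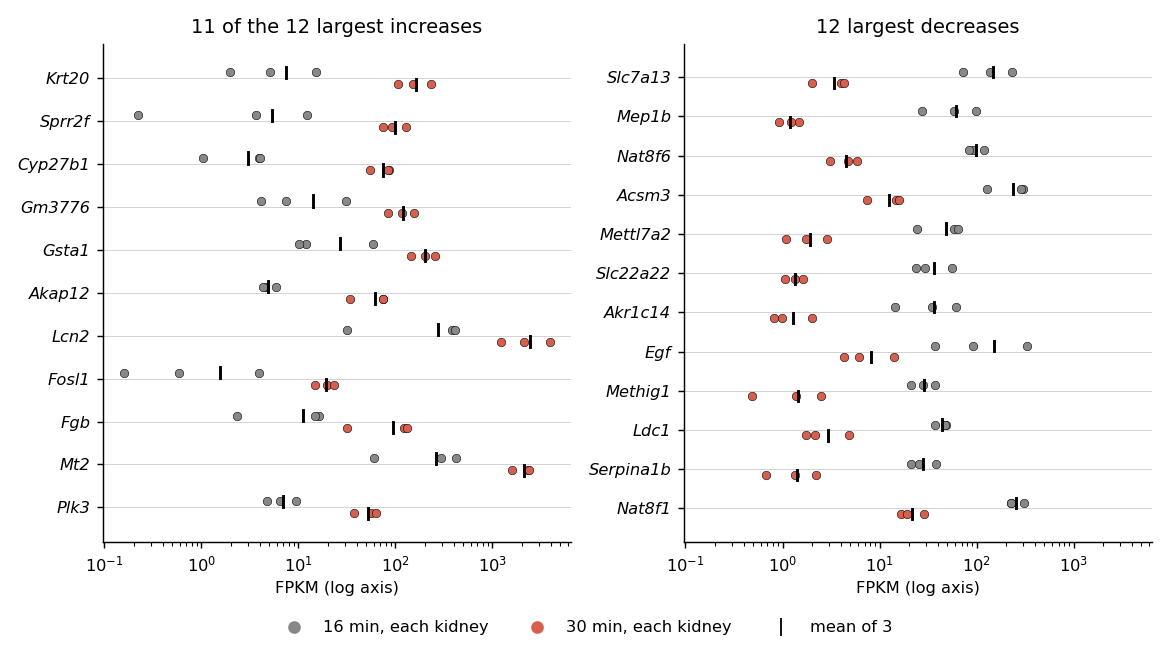
FPKM on a log axis of 11 of the 12 DEGs with the largest increase (left) and the 12 with the largest decrease (right), chosen among DEGs whose groups do not overlap. Each kidney is a point (grey 16 min, red 30 min) and the black bar is the mean of 3; the 16 min points of Lcn2 run from 31.4 FPKM upward because replicate 3 lies apart from the other two.

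Tubular injury markers were higher in the severe kidneys. Of the 20 measured, 11 were DEGs, all higher, and the median log2 fold change was 1.37. The list holds genes that the field uses because they rise after ischemia, so its direction is not independent evidence. Lcn2, which encodes the siderophore-binding protein NGAL, stood at 388, 410.3 and 31.4 FPKM at 16 min and 1213, 2139 and 3921 FPKM at 30 min, a rise of 3.31 ± 0.78 (adjusted p = 0.0018). Havcr1, which encodes the phagocytic receptor KIM-1, stood at 332, 574 and 35.1 FPKM at 16 min and 1179, 950.1 and 831 FPKM at 30 min, a rise of 2.35 ± 0.74 (adjusted p = 0.015). The sham means were 28.2 and 9.11 FPKM, and replicate 3 was the mild kidney nearest to them in both genes, well below the other two. Without it the Havcr1 change was 1.18 and no longer a DEG (adjusted p = 0.14), and Lcn2 was 2.12 (adjusted p = 0.015). The list then held 7 higher DEGs, and 5 when the 6 kidneys were fitted alone. Spp1, osteopontin, reached 17182, 17223 and 20047 FPKM at 30 min from 7903, 10483 and 1192 FPKM at 16 min (2.31 ± 0.5, adjusted p = 0.00094). Its change was 1.37 without 16 min replicate 3, and it was no DEG in the fit of the 6 kidneys alone.

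Of the other genes that the study followed by qPCR, Pgam2, a phosphoglycerate mutase, fell from 66.4, 57.2 and 82.2 to 22.7, 24.4 and 32.9 FPKM (-1.32 ± 0.27, adjusted p = 0.00058). The prostaglandin synthase Ptgs2 stood at 0.37, 0.59 and 0.41 FPKM at 16 min and 1.17, 1.64 and 2.12 FPKM at 30 min, a difference of 0.87 ± 0.19 (adjusted p = 0.0011) that stayed under the fold threshold with a pseudocount of 1 FPKM and passed it at 0.1 FPKM, after rescaling to TPM and without 30 min replicate 1. The cytokine Il6 was near 1 FPKM or below in all 6 kidneys, 0.39, 0.39 and 0.12 FPKM at 16 min and 0.61, 1.3 and 0.59 FPKM at 30 min (0.5 ± 0.21, adjusted p = 0.06). The Il6 groups did not overlap, but the gene did not pass the test.

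Proximal tubule transport was lower across most of the list. Of 55 solute carriers measured, 38 were lower DEGs (69.1%) and none was higher, with a median of -1.37. After Slc7a13, the largest decreases were those of Slc22a19 and Slc22a28, organic anion transporters with close relatives, at -3.46 ± 0.27 and -3.32 ± 0.25. Slc34a1, the phosphate cotransporter of the brush border, is given as an abundant example chosen after its values were seen: it went from 1554, 2075 and 2416 to 460.1, 411 and 450.1 FPKM (-2.25 ± 0.18, adjusted p = 1.3e-08). Not every carrier moved. The glucose cotransporter Slc5a2, chosen in the same way, stood at 77.7, 170.3 and 229 FPKM at 16 min and 118, 93.4 and 79.8 FPKM at 30 min and did not pass (-0.52 ± 0.25, adjusted p = 0.11), and its 16 min replicate 1 was below all 3 severe kidneys.

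Brush border peptidases and endocytic receptors showed the lowest median of any list, -1.46, with 14 of 22 lower DEGs and none higher. Anpep, an aminopeptidase, stood at 69.3, 73.1 and 74.9 FPKM at 16 min and 13.9, 13.4 and 10.7 FPKM at 30 min and fell (-2.45 ± 0.13) (adjusted p = 2.9e-10). Mep1a, the meprin alpha subunit, fell (-2.45 ± 0.18), from 518, 366 and 573 to 89.2, 77.4 and 88.9 FPKM. The endocytic receptors megalin (Lrp2) and cubilin (Cubn), chosen after their values were seen, were at 31.5, 22.3 and 14.1 and 11.8, 9.24 and 5.2 FPKM at 30 min against 81.7, 91.1 and 137 and 30.5, 36.5 and 49.8 FPKM at 16 min, changes of -2.18 ± 0.21 and -2.09 ± 0.2. Both receptors were lowest in 30 min replicate 3.

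Metabolic genes separated by pathway. Amino acid breakdown was the most affected by count, with 35 of 70 enzymes lower DEGs, 2 higher and a median of -0.98. Aadat, an aminotransferase of the lysine and kynurenine pathways, stood at 105, 72.5 and 133 FPKM at 16 min and 12.1, 12.9 and 12.6 FPKM at 30 min (-2.92 ± 0.26, adjusted p = 3.6e-08). Gatm, which makes the creatine precursor, fell (-2.84 ± 0.41), as did Uroc1, of histidine breakdown (-2.67 ± 0.3). The 2 higher members were the glycine decarboxylase Gldc (1.36 ± 0.34) and the mitochondrial arginase Arg2 (1.28 ± 0.44). Neither of these 2 kept its call when the 6 kidneys were fitted alone, Gldc lost it without 16 min replicate 1, and Arg2 lost it without 16 min replicate 3 or without 30 min replicate 2 or 3.

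Of 14 genes of gluconeogenesis and fructose use, 8 were lower DEGs and 1 was higher, with a median of -1.13. G6pc, the phosphatase that releases free glucose, stood at 81.8, 86.9 and 323 FPKM at 16 min and 21.9, 12.9 and 17.2 FPKM at 30 min (-2.9 ± 0.46, adjusted p = 4.3e-05), and the mild replicate 3 was far above the other mild kidneys. The glycerol kinase Gk and the ketohexokinase Khk fell (-1.86 ± 0.18 and -1.77 ± 0.13). Fbp2, the muscle form of fructose bisphosphatase, was the higher member at 19.7, 24.4 and 20.9 FPKM at 16 min and 49.6, 52.9 and 34.8 FPKM at 30 min (1.05 ± 0.12), close enough to the fold threshold that it was no DEG without 16 min replicate 1, or without 30 min replicate 1 or 2. Glycolysis as a list had a median of 0.04, with 2 lower DEGs of 26, Aldoc (-1.34 ± 0.38) and Pgam2. Aldoc lost its call when the 6 kidneys were fitted alone.

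Fatty acid oxidation held a few very large decreases on a modest shift: 12 of 43 enzymes were lower DEGs, none was higher and the median was -0.55. Acsm3 led, followed by Pecr, a peroxisomal reductase, from 269, 263 and 354 to 42.1, 30.0 and 26.4 FPKM (-3.17 ± 0.2), and Eci3, an enoyl-CoA isomerase, from 76.4, 64.9 and 85 to 12.1, 12.1 and 12.8 FPKM (-2.52 ± 0.15). Oxidative phosphorylation was the reverse case, a small shift in nearly every gene. Of 77 nuclear-encoded subunits 64 were lower by adjusted p at any fold and none was higher, against 18.1% and 22.5% of all genes, but only Cox7a1, a cytochrome oxidase subunit, passed the fold threshold. Cox7a1 stood at 29.4, 25.2 and 32.5 FPKM at 16 min and 10.9, 7.18 and 7.41 FPKM at 30 min (-1.69 ± 0.22, adjusted p = 3.7e-06), and the list median was -0.42. In the citric acid cycle and pyruvate entry list, Pdk4, a kinase that shuts pyruvate dehydrogenase and rises in fasting, went from 4.36, 9.27 and 2.82 to 15.6, 26.3 and 37 FPKM (2.13 ± 0.34). Its relatives Pdk2 and Pdk3 moved the other way (-1.17 ± 0.12 and -1.1 ± 0.08), and the malic enzyme Me1 fell (-1.07 ± 0.09), a call lost without 16 min replicate 3 or 30 min replicate 3.

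Cholesterol synthesis was lower throughout. All 25 genes measured had a negative log2 fold change, from -2.28 to -0.33; 15 were DEGs, 23 passed the adjusted p at any fold, and the median was -1.07. Cyp51, the lanosterol demethylase, stood at 46.9, 36.5 and 74 FPKM at 16 min and 11.5, 8.91 and 8.73 FPKM at 30 min (-2.28 ± 0.23, adjusted p = 2e-07). Hmgcs1, the synthase that feeds the rate-limiting reductase, stood at 240.4, 176 and 343 FPKM at 16 min and 65.6, 54.5 and 49 FPKM at 30 min (-2.08 ± 0.2, adjusted p = 8.8e-08). Insig1, which holds back the sterol sensor and is itself sterol-responsive, stood at 37.4, 20.3 and 57.5 FPKM at 16 min and 10.1, 6.44 and 8.27 FPKM at 30 min (-2.0 ± 0.3). Mild replicate 2 was the lowest of the mild kidneys in each of the 3 genes, but remained above all severe kidneys. The 15 DEGs had a mean log2(FPKM + 1) level of 4.33 in sham, 5.07 at 16 min and 3.56 at 30 min. Not every gene followed this mean: Cyp51 averaged 77.6 FPKM in sham, above its mild kidneys, against 155 for Hmgcs1 and 21.5 for Insig1.

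The sterol pathway is controlled by SREBP proteins, which bind sterol regulatory elements near the start of its genes. The letters TCACNCCAC, a core of this element, were searched on both strands in the 250 bases before each start in the RefSeq promoter table (GRCm38.p6), with motifs chosen after the values were seen. They were found in 1 of the 8 lower DEGs of the list that have an entry and in 0 of the 9 other members. The share was 1.25% of all tested genes with an entry and 1.05% of all 32851 promoters. The match is in Hmgcs1, whose window at chr13:119690184-119690252 on the plus strand is shown because it is the one found, with the match in capitals, 137 bases before the start:
Hmgcs1: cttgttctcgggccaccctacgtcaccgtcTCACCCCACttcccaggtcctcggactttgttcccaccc

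Genes of the distal nephron split by segment. Of 30 thick ascending limb and distal tubule genes, 16 were lower DEGs and none was higher, with a median of -1.10. After Egf came Pvalb, the calcium-binding protein parvalbumin, from 7.05, 9.75 and 14.3 to 0.18, 0.69 and 0.65 FPKM (-2.89 ± 0.53), and Kl, which encodes the FGF23 co-receptor klotho, from 96.5, 109 and 189 to 26.6, 25.6 and 30.9 FPKM (-2.14 ± 0.25, adjusted p = 1.1e-06). The count was 10 without 16 min replicate 1 and 10 without 16 min replicate 3. In this segment 30 min replicate 3 was the least changed of the severe kidneys, as Umod, chosen after its values were seen, shows. Umod, uromodulin, stood at 2276, 1076 and 1545 FPKM at 16 min and 463, 454 and 2034 FPKM at 30 min (-1.2 ± 0.38, adjusted p = 0.014), so the groups overlapped, and it was no DEG without 16 min replicate 1, without 30 min replicate 1 or 2, or when the 6 kidneys were fitted alone.

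Collecting duct genes moved little: 2 of 26 were lower DEGs and the median was -0.23. They were Slc4a1, the chloride-bicarbonate exchanger of acid-secreting cells and of red cells (14.8, 5.75 and 17 against 2.61, 0.95 and 2.43 FPKM, -2.08 ± 0.37), and the vasopressin receptor Avpr2 (-1.11 ± 0.35), whose groups overlapped and which lost its call without 16 min replicate 1 or 30 min replicate 2. Among 37 kidney transcription factors, 2 were higher DEGs (5.41%) and 3 lower (8.11%), against 2.56% and 3.67% of all genes. The list median was -0.48. At any fold 18 were lower by adjusted p and 6 higher, against 18.1% and 22.5% of all genes. Sox9, a factor of regenerating tubule cells, stood at 1.25, 4.63 and 0.43 FPKM at 16 min and 10.4, 9.04 and 7.77 FPKM at 30 min (1.92 ± 0.33, adjusted p = 9e-05). Zbtb16, a zinc finger factor that glucocorticoids induce, stood at 0.71, 0.36 and 0.83 FPKM at 16 min and 3.29, 5.79 and 13.4 FPKM at 30 min (2.21 ± 0.44). Emx1 (-1.03 ± 0.1), Irx1 (-1.22 ± 0.4) and Vdr were the lower DEGs, and only Vdr kept its call without 16 min replicate 1. Hnf4a, the factor that maintains proximal tubule identity and was chosen after its values were seen, passed by adjusted p but not by fold, at 175, 167 and 212 FPKM at 16 min and 137, 126 and 95.6 FPKM at 30 min (-0.51 ± 0.1, adjusted p = 0.00023).

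Immediate early and AP-1 genes, which are switched on within minutes of a stimulus, were higher at 24 h in the severe kidneys. Of 29 measured 18 were higher DEGs (62.1%), none was lower, the median was 1.31 and no member had a negative log2 fold change. After Fosl1, the largest increases were those of Dusp5, a phosphatase that ends ERK signaling (1.57, 3.88 and 1.09 against 9.76, 12.6 and 11.7 FPKM, 2.05 ± 0.22), and Atf3, a stress-induced repressor (2.62, 4.27 and 0.72 against 7.88, 8.3 and 15.5 FPKM, 1.79 ± 0.4). The 18 DEGs did not overlap between the groups in any case, which held for 1090 of all 1133 DEGs.

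Of 31 NRF2 target genes, which defend against oxidants, 8 were higher DEGs, none was lower and the median was 0.46, and at any fold 19 were higher by adjusted p and 1 lower. Srxn1, which repairs oxidized peroxiredoxins, stood at 41.5, 43.4 and 34.9 FPKM at 16 min and 186, 316 and 227 FPKM at 30 min (2.66 ± 0.17, adjusted p = 1.1e-09), and the carbonyl reductase Cbr3 at 2.21, 2.91 and 1.95 FPKM at 16 min and 11.5, 26.6 and 12.1 FPKM at 30 min (2.32 ± 0.33). Of 33 genes of the ATF4 and endoplasmic reticulum stress list 8 were higher DEGs (24.2%) and 1 was lower (3.03%, near the 3.67% of all genes). At any fold 14 were higher and 6 lower. Without 16 min replicate 3, or in a fit of the 6 kidneys, 5 were higher DEGs. Gdf15, a secreted stress hormone, rose by 2.62 ± 0.36 (15.2, 26.2 and 11.8 against 84.7, 146 and 88 FPKM), Ppp1r15a, which restores translation after stress, by 1.42 ± 0.15, and the pseudokinase Trib3 by 1.41 ± 0.23. The lower one was Sdf2l1, an endoplasmic reticulum chaperone cofactor (-1.09 ± 0.2), a call lost without 16 min replicate 1 or 30 min replicate 3.

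Of 30 heat shock proteins and cochaperones 4 were higher DEGs and none was lower. At any fold 7 were higher by adjusted p and 3 lower, and the median was 0.00. The small heat shock protein Hspb1 stood at 43.4, 93 and 13.2 FPKM at 16 min and 147, 191 and 190.5 FPKM at 30 min (2.3 ± 0.42, adjusted p = 0.00018). Hspa1a, an inducible HSP70 with the near-identical neighbour Hspa1b, stood at 18, 7.87 and 9.15 FPKM at 16 min and 47.5, 62.1 and 38.9 FPKM at 30 min (2.09 ± 0.27, adjusted p = 4.8e-06). Hspb8, a small heat shock protein of chaperone-assisted autophagy, rose by 1.13 ± 0.22. Hspb1 was no DEG in the fit of the 6 kidneys alone. Hspb8 and Hspa1b lost their calls without 16 min replicate 3, which left 2 DEGs; Hspb8 lost it also without 30 min replicate 3 and Hspa1b without 16 min replicate 2.

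Of 25 hypoxia-inducible factor targets 2 were higher (8.0%) and 1 was lower (4.0%), against 2.56% and 3.67% of all genes, with a median of 0.05. The lower count is near the share of all genes. The vasodilator adrenomedullin (Adm) stood at 2.64, 5.05 and 4.89 FPKM at 16 min and 16.4, 24.4 and 17.7 FPKM at 30 min (2.0 ± 0.2, adjusted p = 1.8e-07), and the lipase inhibitor Angptl4 at 19.1, 29 and 18.1 FPKM at 16 min and 66.5, 93.8 and 66.8 FPKM at 30 min (1.79 ± 0.32). The carbonic anhydrase Car9 fell (-1.55 ± 0.23), from 7.36, 6.58 and 10.3 to 2.23, 2.44 and 1.42 FPKM. Of 28 p53 targets 4 were higher DEGs (14.3%) and 1 was lower (3.57%, near the 3.67% of all genes). The higher count was 7 without 16 min replicate 2. At any fold 18 of the 28 were higher by adjusted p and 3 lower, with a median of 0.45. Cdkn1a, the cyclin-dependent kinase inhibitor p21, stood at 13, 28.2 and 4.92 FPKM at 16 min and 62.2, 84.8 and 109.9 FPKM at 30 min (2.72 ± 0.38, adjusted p = 1e-05). Btg2, an antiproliferative gene, rose by 1.69 ± 0.26, and the xylulose reductase Dcxr fell (-1.4 ± 0.18). Of 37 cell death genes 5 were higher and none was lower: Tnfrsf12a, the TWEAK receptor (67.3, 114 and 23.3 against 230.2, 266 and 249.8 FPKM, 2.22 ± 0.4), Mlkl, the pore-forming protein of necroptosis (1.51 ± 0.29), and Acsl4, which primes membranes for ferroptosis (17.5, 17.3 and 19.7 against 42.5, 49.2 and 43.1 FPKM, 1.3 ± 0.13), had the largest changes.

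Of 32 cytokine and signaling genes 7 were higher DEGs and none was lower (median 0.59). At any fold 20 were higher by adjusted p and 2 lower. The count of higher DEGs ran from 3 without 16 min replicate 3 to 11 without 16 min replicate 2, and was 4 in the fit of the 6 kidneys alone and 14 with a pseudocount of 0.1 FPKM. Clcf1, an interleukin-6 family cytokine, stood at 6.49, 14.7 and 2.84 FPKM at 16 min and 33.4, 33.2 and 26.6 FPKM at 30 min (2.07 ± 0.34, adjusted p = 5.3e-05). The feedback inhibitor Socs3 stood at 8.04, 16.2 and 1.12 FPKM at 16 min and 15.7, 17.8 and 20.6 FPKM at 30 min (1.44 ± 0.5), with overlapping groups and no call without 16 min replicate 3 or without 30 min replicate 2 or 3. The decoy receptor Il1r2 stood at 0.22, 0.33 and 0 FPKM at 16 min and 0.88, 1.99 and 3.62 FPKM at 30 min (1.35 ± 0.2).

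Among 27 chemokines 2 were higher (7.41%) and 3 lower (11.1%), against 2.56% and 3.67% of all genes. The 2 called higher in this fit were Ppbp (0.58, 2.15 and 0.58 against 4.03, 7.38 and 3.29 FPKM, 1.5 ± 0.25) and Pf4 (4.35, 4.79 and 1.12 against 6.81, 11.8 and 8.93 FPKM, 1.31 ± 0.29). Both are known as products of platelets, but which chemokines were called depended on the setting. Cxcl12, which retains leukocytes and progenitors, stood at 44, 26.9 and 84.8 FPKM at 16 min and 9.05, 9.39 and 17.7 FPKM at 30 min (-1.93 ± 0.32, adjusted p = 5.6e-05). Ccl28, an epithelial chemokine, and Ccl12, a monocyte attractant, fell (-1.85 ± 0.28 and -1.7 ± 0.4). Pf4 was no DEG without 16 min replicate 3; the count of higher chemokines was then 1, against 6 with a pseudocount of 0.1 FPKM, 5 without 16 min replicate 2 or after rescaling to TPM and 4 without 30 min replicate 1 or replicate 2. Interferon response genes held 1 lower DEG of 46 (2.17%, against 3.67% of all genes). It was H2-Aa, an MHC class II chain (15, 24.3 and 16.5 against 4.9, 4.01 and 15.9 FPKM, -1.28 ± 0.37), whose groups overlapped and whose call was lost without 30 min replicate 2. The list median was -0.38. When the sham kidneys were left out of the fit 5 members were lower DEGs, without 30 min replicate 3 there were 4, without 16 min replicate 1 or 3 or in the fit of the 6 kidneys there were 2, and with a pseudocount of 0.1 FPKM there were 3.

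Of 34 complement and coagulation genes 10 were higher DEGs (29.4%) and 1 was lower (2.94%, near the 3.67% of all genes). When the 6 kidneys were fitted alone 5 were higher. The median was 0.08, which turned to -0.03 without 16 min replicate 3. The 3 fibrinogen chains were among the higher members. Fgb stood at 16.1, 14.7 and 2.33 FPKM at 16 min and 122, 133 and 31.5 FPKM at 30 min (3.12 ± 0.64, adjusted p = 0.00055), Fgg at 79, 55.8 and 8.7 FPKM at 16 min and 377, 349.6 and 102 FPKM at 30 min (2.8 ± 0.7, adjusted p = 0.0031) and Fga, chosen after its values were seen, at 47.1, 43.1 and 10.2 FPKM at 16 min and 251, 248 and 70.7 FPKM at 30 min (2.61 ± 0.61). In all 3 chains replicate 3 was the lowest kidney of each group, and Fgg and Fga lost their calls in the fit of the 6 kidneys. Cfb, complement factor B, was the lower member (111, 132 and 132 against 74.9, 61.2 and 40.1 FPKM, -1.08 ± 0.14), and it was no DEG without 30 min replicate 3.

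Of 36 collagens and other matrix genes 5 were higher, led by the injury matrix protein tenascin-C, Tnc (5.9, 7.88 and 1.86 against 19.8, 13.1 and 22 FPKM, 1.76 ± 0.31), with the laminin chain Lamb3 (1.21 ± 0.31) among them. That count was 10 without 16 min replicate 2 or 30 min replicate 1, 8 without 30 min replicate 2 or with a pseudocount of 0.1 FPKM and 3 without 30 min replicate 3 or in the fit of the 6 kidneys, and Lamb3 lost its call without 16 min replicate 3. Of 25 matrix metalloproteinases and inhibitors 6 were higher and 1 lower, with 2 higher without 16 min replicate 3 and 11 with a pseudocount of 0.1 FPKM. Mmp7, matrilysin, rose by 1.43 ± 0.29 (0.59, 0.83 and 0.0700 against 1.75, 4.64 and 2.77 FPKM) and kept its call throughout, whereas Timp1 (1.5 ± 0.57) and the sheddase Adam8 (1.5 ± 0.31) lost theirs without 16 min replicate 3, Timp1 also without 30 min replicate 1 or 3. The protease Adamts15 fell (-1.4 ± 0.19). Among 41 growth factors and receptors 8 were higher and none was lower: beside Gdf15, the YAP-responsive matricellular genes Ccn2 (14, 28.6 and 28.4 against 71.2, 107 and 166 FPKM, 2.31 ± 0.28, adjusted p = 2.3e-06) and Ccn1 (24.6, 57.8 and 15.8 against 76.2, 136 and 70.4 FPKM, 1.69 ± 0.39) had the largest increases.

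Of 45 annexins, S100 proteins and actin cytoskeleton genes 16 were higher DEGs, none was lower and 36 were higher by adjusted p at any fold, with a median of 0.82. Anxa3 stood at 19.4, 50.6 and 9.31 FPKM at 16 min and 112, 121 and 106 FPKM at 30 min (2.45 ± 0.39, adjusted p = 4.9e-05), and Anxa2, which organizes membrane and actin at the cell surface, at 122, 205 and 50.9 FPKM at 16 min and 424, 337 and 358 FPKM at 30 min (1.8 ± 0.34). The calcium-binding protein S100a6 rose by 1.71 ± 0.46, a call lost without 16 min replicate 3. Of 42 keratins, claudins, integrins and junction genes 13 were higher DEGs and none was lower, with a median of 0.70, and at any fold 27 were higher and 5 lower. Cldn4, a claudin that seals the paracellular route to sodium, stood at 32, 50.1 and 11.3 FPKM at 16 min and 109, 146 and 143 FPKM at 30 min (2.37 ± 0.34, adjusted p = 1.5e-05). The simple-epithelium keratin Krt19 (25.6, 27 and 2.56 against 101, 66.3 and 56 FPKM, 2.45 ± 0.64) and the basal keratin Krt14 (1.47, 3.51 and 0.13 against 14.9, 11.9 and 4.34 FPKM, 2.15 ± 0.58) rose too, but neither was a DEG in the fit of the 6 kidneys alone.

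**Figure D3:**
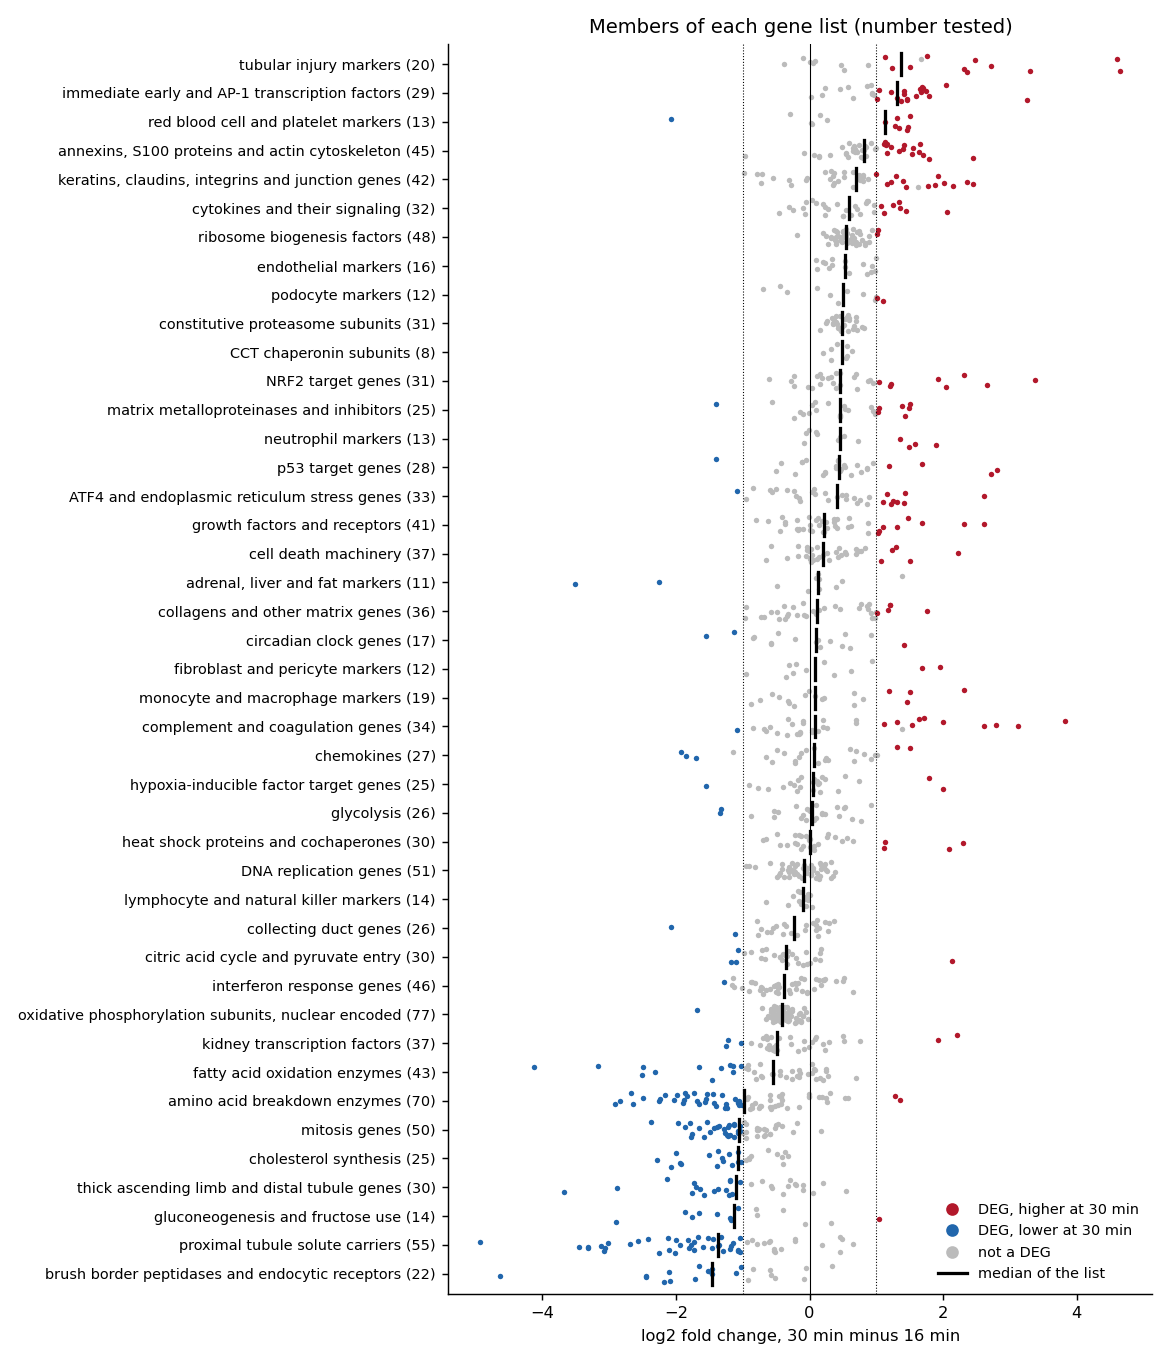
Log2 fold change, 30 min minus 16 min, of every tested member of each list of 8 or more genes (number tested in parentheses), with DEGs in red or blue and the list median as a black bar. Proximal tubule, brush border, cholesterol and mitosis lists lie to the left of 0, the injury, immediate early and red blood cell lists to the right, and oxidative phosphorylation and proteasome members form tight groups inside the dotted fold threshold, Cox7a1 apart.

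The cell cycle lists parted between DNA replication and mitosis. Of 51 DNA replication genes none was a DEG by limma. An unadjusted p under 0.05 was seen in 6, against 8549 of all 18188 genes. The adjusted p at any fold was passed by 4, all lower, and the median was -0.08. Pcna, the polymerase clamp, stood at 48.2, 86.7 and 52.1 FPKM at 16 min and 81.5, 53 and 59 FPKM at 30 min (0.11 ± 0.25, adjusted p = 0.78), and the clamp loader subunit Rfc2 at 36, 41.7 and 29.3 FPKM at 16 min and 30.9, 23.6 and 22.8 FPKM at 30 min (-0.45 ± 0.12, adjusted p = 0.0058). Pcna was at 34.8 FPKM on average in sham, below all 6 clamped kidneys. Without 16 min replicate 1 there were 2 lower DEGs and without 30 min replicate 1 there were 3. The sign of the replication median turned without 16 min replicate 2 or 30 min replicate 2.

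Of 50 mitosis genes 27 were lower DEGs (54.0%), none was higher, 43 were lower at any fold, and the median was -1.06. None of the 27 overlapped between the groups, which held for 1090 of all 1133 DEGs. Cdca3, a trigger of mitotic entry, stood at 8.71, 22.5 and 15 FPKM at 16 min and 3.48, 1.35 and 1.47 FPKM at 30 min (-2.38 ± 0.4, adjusted p = 6.8e-05). Pbk, a mitotic kinase, stood at 4.59, 11.9 and 8.23 FPKM at 16 min and 2.12, 0.87 and 0.85 FPKM at 30 min (-1.97 ± 0.42), and Birc5, survivin, at 8.79, 24.8 and 14.3 FPKM at 16 min and 6.96, 2.92 and 1.53 FPKM at 30 min (-1.87 ± 0.44). Replicate 2 was the highest mild kidney in each, and the count was 14 without it, 15 in the fit of the 6 kidneys and 42 with a pseudocount of 0.1 FPKM. In sham the 27 genes had a mean log2(FPKM + 1) level of 1.11, at 16 min of 2.85 and at 30 min of 1.43. These 27 were chosen for being lower at 30 min than at 16 min, and the 23 other members are not in these means. Over the 27, the mild level was well above sham and the severe level only a little above it.

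Many mitosis genes share 2 promoter elements, the CCAAT box and the cell cycle genes homology region (CHR). Through the CHR they are held off outside of G2 and M phase. In the same 250 bases, the CHR letters TTTGAA were found on either strand in 11 of the 21 lower mitosis DEGs with an entry and in 4 of the 21 other members. The share was 14.2% of all tested genes with an entry and 16.0% of all promoters. CCAAT was found in 17 of 21 and 12 of 21, against 39.8% of genes and 33.8% of promoters. TTTGAA and CCAAT do not contain one another. The 7 DEGs with a CHR match in the last 50 bases before the start are shown because they carry the element closest to the start, in order of log2 fold change and 5′ to 3′ on the strand of the gene, with TTTGAA or its reverse complement TTCAAA in capitals:
Ube2c (chr2:164769870-164769928, plus strand): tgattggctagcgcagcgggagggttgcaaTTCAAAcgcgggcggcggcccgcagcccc
Cdc20 (chr4:118437344-118437391, minus strand): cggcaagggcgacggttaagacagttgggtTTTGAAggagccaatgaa
Ckap2l (chr2:129297213-129297272, minus strand): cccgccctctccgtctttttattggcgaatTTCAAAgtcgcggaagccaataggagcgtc
Top2a (chr11:99024190-99024242, minus strand): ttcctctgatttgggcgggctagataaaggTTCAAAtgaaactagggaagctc
Prc1 (chr7:80294416-80294475, plus strand): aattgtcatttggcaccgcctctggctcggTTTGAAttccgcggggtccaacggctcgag
Kif11 (chr19:37376333-37376381, plus strand): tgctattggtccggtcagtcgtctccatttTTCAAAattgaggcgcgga
Kif22 (chr7:127042421-127042467, minus strand): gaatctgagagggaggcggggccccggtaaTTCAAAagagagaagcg

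Among these 7, the ubiquitin carrier Ube2c stood at 13, 39.2 and 19.4 FPKM at 16 min and 8.37, 5.44 and 3.85 FPKM at 30 min (-1.79 ± 0.38) and the anaphase activator Cdc20 at 5.76, 15.7 and 11.1 FPKM at 16 min and 3.24, 1.74 and 1.89 FPKM at 30 min (-1.77 ± 0.42). Top2a, which untangles sister chromatids, stood at 4.98, 13.1 and 7.71 FPKM at 16 min and 4.32, 1.48 and 1.76 FPKM at 30 min (-1.43 ± 0.37). The spindle midzone organizer Prc1 and the spindle motors Kif11 and Kif22 fell (-1.35 ± 0.38, -1.26 ± 0.3 and -1.05 ± 0.31), as did the spindle protein Ckap2l (-1.53 ± 0.34); Prc1 lost its call without 16 min replicate 2, and Kif22 without that kidney or without 30 min replicate 2 or 3. In the fit of the 6 kidneys alone Top2a, Prc1 and Kif22 were no DEGs. As in the wider list, mild replicate 2 was the highest kidney in these genes. A match of letters is a description and not a bound site. In the same windows the heat shock element was in 0 of 4 higher heat shock DEGs, 2 of 19 members that were no DEG and 0.419% of all tested genes with an entry. In the same order, the antioxidant core TGACNNNGC was in 2 of 6 NRF2 DEGs, 4 of 19 and 13.2%. The AP-1 site TGANTCA was in 1 of 11 DEGs of the annexin list, 4 of 25 and 6.43%. The HNF1 site was in 1 of 31 proximal tubule DEGs, 0 of 13 and 0.398%.

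Genes of protein making and folding moved together by small amounts. Of 48 ribosome biogenesis factors 46 were higher by adjusted p at any fold and none was lower, with a median of 0.55. Of all genes 22.5% were higher and 18.1% lower at any fold. Of 31 constitutive proteasome subunits 30 were higher (median 0.49), and of 8 CCT chaperonin subunits all 8 were (median 0.48). Only Gnl3 (12.9, 14.2 and 11.7 against 30.6, 29.4 and 21.7 FPKM, 1.02 ± 0.13) and Ppan (13.7, 13.8 and 8.25 against 27.7, 26.5 and 20.4 FPKM, 1.03 ± 0.15), both nucleolar, passed the fold threshold, and both lost their calls without 16 min replicate 3 or without 30 min replicate 1 or 2. Psmb4, a proteasome core subunit, stood at 148, 162 and 129 FPKM at 16 min and 217, 239.7 and 186 FPKM at 30 min (0.67 ± 0.09, adjusted p = 3.7e-06), and Psmb5, which carries the chymotrypsin-like site, at 197, 189 and 144 FPKM at 16 min and 235, 242 and 207 FPKM at 30 min (0.51 ± 0.09). Cct5 stood at 87.2, 95.9 and 77.9 FPKM at 16 min and 143, 132 and 113 FPKM at 30 min (0.64 ± 0.1), and Cct6a at 89.6, 105 and 92 FPKM at 16 min and 125, 113 and 102 FPKM at 30 min (0.32 ± 0.07). In all 4 genes the groups did not overlap after quantile normalization, as in 39.5% of all genes tested. In the FPKM values of Cct6a, 16 min replicate 2 was above 30 min replicate 3. Of 17 clock genes 1 was higher, Per1 (8.57, 7.16 and 12.4 against 15.7, 25.3 and 41.9 FPKM, 1.41 ± 0.33), and 2 were lower, among them the output factor Hlf (-1.55 ± 0.16). Per1 was no DEG in the fit of the 6 kidneys.

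Markers of other cell types were read for the same kidneys. Of 13 neutrophil markers tested 4 were higher DEGs and none was lower. S100a9 stood at 1.53, 3.92 and 0.77 FPKM at 16 min and 12.5, 9.85 and 6.92 FPKM at 30 min (1.9 ± 0.33, adjusted p = 9.2e-05), S100a8 at 1.58, 3.33 and 1.41 FPKM at 16 min and 5.19, 12.1 and 6.5 FPKM at 30 min (1.49 ± 0.37) and the mature-neutrophil gene Retnlg at 0.11, 0.43 and 0 FPKM at 16 min and 1.19, 3.06 and 3.68 FPKM at 30 min (1.58 ± 0.32). The summed level of the list was 7.03, 13.4 and 5.21 FPKM at 16 min and 26.5, 34.1 and 28.1 FPKM at 30 min, with no overlap, but 8 of the 14 members stayed under 1 FPKM in all 6 kidneys and the granule protease Elane was at 0. Of 19 monocyte and macrophage markers 4 were higher, Spp1, Chil3 (1.51 ± 0.39), the endotoxin co-receptor Cd14 (1.46 ± 0.33) and Gpnmb (1.19 ± 0.27, chosen after its values were seen), and none was a DEG in the fit of the 6 kidneys; Cd14 lost its call also without 16 min replicate 3 and Gpnmb without 30 min replicate 1. Injured tubule also expresses Spp1. Without Spp1 the list summed to 119.8, 121 and 50.8 FPKM at 16 min and 100.4, 86.0 and 140.2 FPKM at 30 min, which overlap. No lymphocyte or natural killer marker was a DEG by limma. Of 14 markers 1 had an unadjusted p under 0.05, against 8549 of all 18188 genes. Likewise 1 of 14 passed an adjusted p at any fold, the T cell receptor partner Cd8a (0.93, 1.23 and 1.19 against 0.47, 0.32 and 0.21 FPKM, -0.65 ± 0.17). In all 6 kidneys 13 of the 14 stayed under 1 FPKM, with Klrb1c at 0. Genes this low have little room to pass the fold threshold at a pseudocount of 1 FPKM, and with 0.1 FPKM 3 members were lower DEGs. The B cell gene Cd79b stood at 0.56, 0.58 and 0.32 FPKM at 16 min and 0.75, 0.300 and 0.36 FPKM at 30 min.

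Red blood cell and platelet markers rose at 30 min in 7 of 13, with a median of 1.13, and 1, the shared anion exchanger Slc4a1, was lower. Hbb-bs, a beta globin, stood at 107, 152 and 127 FPKM at 16 min and 406, 431 and 235 FPKM at 30 min (1.47 ± 0.43, adjusted p = 0.0091) and Hba-a1, an alpha globin with a near-identical copy, at 160.3, 194 and 166 FPKM at 16 min and 541, 599 and 333 FPKM at 30 min (1.46 ± 0.4, adjusted p = 0.0064). The list summed to 399, 529.7 and 465 FPKM at 16 min and 1364, 1492 and 812 FPKM at 30 min. The groups were apart, with 30 min replicate 3 the lowest of the severe kidneys, and the count was 4 without 16 min replicate 1 or without 30 min replicate 1. The clotting genes Fgb and Fgg were higher at 30 min too, as every higher DEG is by definition. At 28 and 30 min Fgb averaged 103 and 95.5 FPKM and Fgg 240 and 276 FPKM. Hba-a1 averaged 225 and 491 FPKM and Hbb-bs 172 and 357 FPKM. The part of blood cells in these results was not tested.

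Smooth muscle and pericyte genes singled out 30 min replicate 3. Tagln and Acta2, contractile proteins of smooth muscle and myofibroblasts, stood at 28.1, 34.2 and 29.5 FPKM at 16 min and 86, 69.3 and 247 FPKM at 30 min and 21.5, 30.9 and 29.8 FPKM at 16 min and 68.8, 48.7 and 177 FPKM at 30 min, with changes of 1.95 ± 0.36 and 1.69 ± 0.37, and were the 2 higher DEGs of 12 fibroblast and pericyte markers. The list summed to 252, 258 and 704 FPKM in the severe kidneys. The same kidney was the least changed of the 3 in Umod and Irx1; the part of its other tissue makeup in the results was not tested. Podocyte markers had 2 higher DEGs of 12. One was Wt1 (1.48, 2.72 and 3.41 against 3.35, 7.32 and 8.01 FPKM, 1.01 ± 0.26), which lost its call without 16 min replicate 1 or 30 min replicate 2 or 3, and the count ran from 0 without 16 min replicate 1, without 30 min replicate 2 or in the fit of the 6 kidneys to 4 without 16 min replicate 3, without 30 min replicate 1 or with a pseudocount of 0.1 FPKM. Of 16 endothelial markers none was a DEG by limma with all kidneys. An unadjusted p under 0.05 was seen in 10, against 8549 of all 18188 genes. By adjusted p at any fold 9 were higher, against 22.5% of all genes, and the median was 0.53. There were 6 DEGs without 30 min replicate 1, 3 without 16 min replicate 3 and 4 with a pseudocount of 0.1 FPKM. Emcn, an endothelial sialomucin, stood at 36.5, 40.3 and 38.4 FPKM at 16 min and 41, 60.6 and 65.4 FPKM at 30 min (0.53 ± 0.14, adjusted p = 0.0055) and the fenestral diaphragm gene Plvap at 65, 52.6 and 66 FPKM at 16 min and 50.7, 72.3 and 108 FPKM at 30 min (0.34 ± 0.21, adjusted p = 0.23).

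Of 11 adrenal, liver and fat markers 2 were lower, Serpina1a (82.7, 48.8 and 83.6 against 4.81, 9.21 and 3.23 FPKM, -3.51 ± 0.41) and Ttr (168, 125 and 346 against 34.1, 38.7 and 46.5 FPKM, -2.25 ± 0.33), both of which were present in sham kidneys (123 and 75.1 FPKM on average). The Y-linked genes Ddx3y (8.47, 7.72 and 13.2 against 10.7, 12.6 and 13 FPKM) and Eif2s3y (28.3, 25.9 and 18.6 against 28.2, 30.0 and 30.3 FPKM) were present in all 6 kidneys and neither was a DEG.

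The kidneys clamped for 18 to 28 min were placed on the same scale, from 0% at the 16 min mean to 100% at the 30 min mean. The median DEG stood at 2.22% and 1.11% in the 18 and 20 min groups and at 7.2% and 4.26% in the 22 and 24 min groups. It stood at 13.2% after 26 min of clamping and at 65.3% after 28 min. The 3 kidneys at 26 min were at 10.2%, 5.2% and 22.1%, and the 3 at 28 min at 70.0%, 62.9% and 62.9%, so the spread within a group was small beside the step between them. At 26 min 60 of the 1133 DEGs had reached the midpoint, and at 28 min 819 had (72.3%), 100 of them past the 30 min level. The DEGs were chosen for their 16 and 30 min values, so the ends of the scale are fixed by the rule and the positions carry no test.

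**Figure D4:**
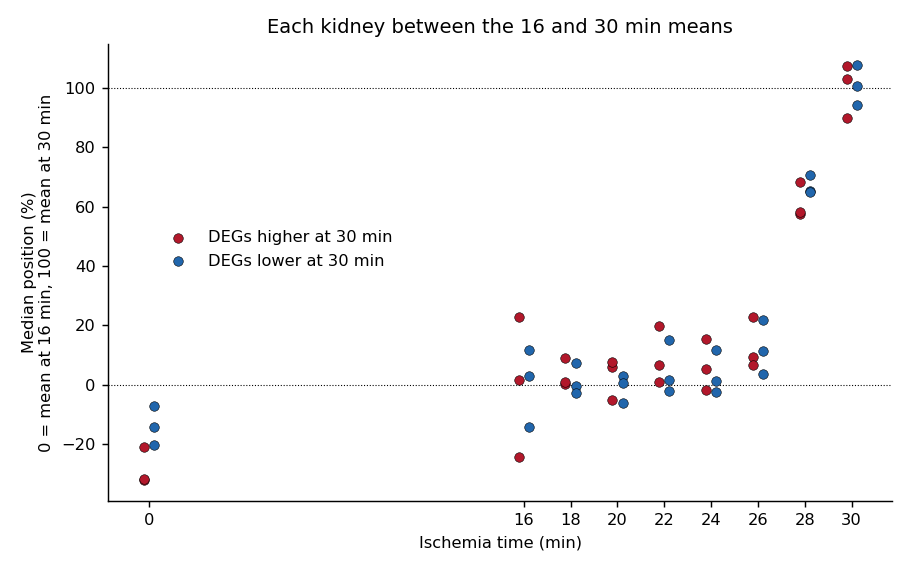
Median position of each of the 27 kidneys over the 466 higher DEGs (red) and the 667 lower DEGs (blue), in percent of the distance from the 16 min mean to the 30 min mean, against ischemia time in minutes. The kidneys from 16 to 26 min lie between -24.2% and 22.8%, the 3 at 28 min between 57.6% and 70.7%, and over the higher DEGs the 16 min kidneys alone span nearly that whole lower range.

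At 28 min the DEGs of the lists stood at different positions. The 16 thick ascending limb and distal DEGs were already at the severe level at 28 min, at a median position of 108%, and so were the 8 NRF2 DEGs, at 102%. The severe level of the thick ascending limb genes includes 30 min replicate 3, the least changed severe kidney in this segment. The whole list summed to 3011, 3801 and 7935 FPKM in the 30 min kidneys. Proximal tubule carriers (61.0%), amino acid breakdown (66.9%), fatty acid oxidation (75.5%) and injury markers (77.2%) were part of the way. Mitosis DEGs stood at 51.0%, keratin and junction DEGs at 49.1% and heat shock DEGs at 35.5%. Red blood cell and platelet DEGs were at 13.1%, and none of the 7 had reached the midpoint at 28 min. Their mean log2 level was not ordered by clamp time, at 4.83 after 18 min, 4.64 after 22 min, 4.43 after 28 min and 5.62 after 30 min. For single genes, means ± SD over 3 kidneys at 28 and 30 min were 259 ± 33.8 and 200.2 ± 56 FPKM for Gsta1, 4.86 ± 0.455 and 8.17 ± 5.2 for Egf and 7.37 ± 1.45 and 3.42 ± 1.25 for Slc7a13. They were 15.4 ± 2.39 and 49.5 ± 11.7 FPKM for Hspa1a and 225 ± 127 and 491 ± 139.8 for Hba-a1. Injury markers differed among themselves, at 1273 ± 126 and 987 ± 177 FPKM for Havcr1 and 839 ± 86.7 and 2424 ± 1377 FPKM for Lcn2. Cyp27b1 was at 21.5 ± 32.9 and 75 ± 17.3 FPKM, and its SD at 28 min exceeds the mean. These positions are descriptions of a few genes per list, and the differences between lists were not tested.

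**Figure D5:**
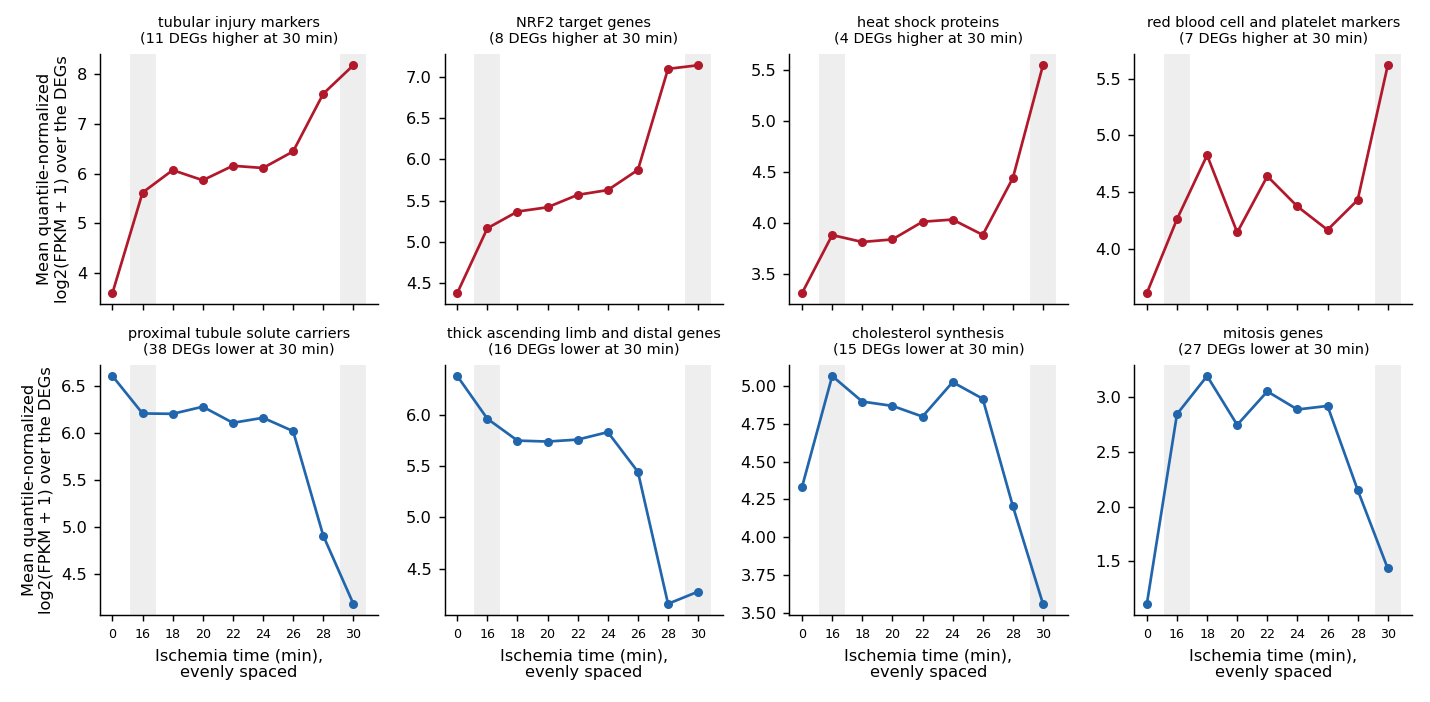
Mean quantile-normalized log2(FPKM + 1) of the DEGs of 8 lists at each ischemia time (evenly spaced, in minutes; 3 kidneys each, 16 and 30 min shaded), with lists higher at 30 min in red and lower in blue. Mitosis DEGs go from 1.11 in sham to 2.85 at 16 min and back to 1.43 at 30 min. Thick ascending limb DEGs are at 4.16 at 28 min and 4.28 at 30 min, and red blood cell DEGs are at 4.43 at 28 min and 5.62 at 30 min.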

How the data were processed

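RNA-Seq covered the clamped or sham-operated left kidney of 27 mice. The authors deposited FPKM, scaled for gene length and library output and given to 2 decimals under gene symbols, which the study's text calls RPKM. The submitters' processing notes name Bowtie2, RSEM and the build GRCm38.p6, with no versions. Read counts were not used here, so the depth is unknown.

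Sample titles gave the groups. After log2(FPKM + 1) transformation and quantile normalization of all 27 columns, limma 3.58.1 (R 4.3.3) estimated a mean for each clamp time and the contrast 30 min minus 16 min, for the 18188 of 19392 genes above 0 FPKM in at least 3 kidneys, without covariates. All 9 groups shared the estimate of the spread, and adjusted p-values are Benjamini-Hochberg values over all genes tested. The fit was tested on simulated data with known changes. Alternatives were another pseudocount, no quantile normalization, TPM, other filters, other sets of kidneys, a trended prior, a replicate block and each kidney left out.

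The comparison, gene lists and motifs were chosen with earlier results of these data known. Named genes were the 12 largest changes in each direction among DEGs whose groups do not overlap and whose higher mean is at least 1 FPKM, up to 3 DEGs per list and direction (or, in a list with none, the 2 most abundant members), the study's qPCR genes, and the 5 most abundant DEGs in no list per direction. Of 1322 list entries 1305 matched the file by symbol, 9 by an older symbol and 8 did not match. RefSeq (GRCm38.p6) gave coordinates and promoters, the latter for 14320 tested genes. Some genes that this rule names are not reported here.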

Additional observations from a re-analysis of the deposited data

How the results depend on the processing

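With a pseudocount of 0.1 FPKM the DEGs rose to 1973 (875 higher, 1098 lower), 1130 of them shared with the 1133; the smaller pseudocount enlarges the fold change of low genes by construction. The total lay between 957 (6 kidneys fitted alone) and 1360 (values rescaled to TPM) under the other alternatives that kept all 6 kidneys, and leaving out 1 kidney gave 941 to 1353 (362 to 602 higher, 579 to 751 lower). No alternative moved the median of all genes by over 0.1. Of 136 named DEGs 99 kept their call in all 15 alternatives, 37 lost it in at least 1 and none changed sign. The fit of the 6 kidneys, whose spread rests on these 2 groups in place of 9, lost 28, among them Lcn2, Havcr1, Spp1, Avpr2, Irx1, Gldc, Arg2, Aldoc, Hspb1, Socs3, Pf4, H2-Aa, Fgg, Timp1, Adam8, Lamb3, Ccn1, Krt19, Krt14, S100a6, Birc5, Per1, Chil3, Cd14, Wt1 and Acta2. Leaving out 16 min replicate 3 lost 16, replicate 1 lost 9 and replicate 2 none, and leaving out 30 min replicate 1, 2 or 3 lost 5, 11 and 9. Timp1 also lost its call with a pseudocount of 0.1 FPKM and after rescaling to TPM.

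Of the genes that were no DEG, Pcna ran from -0.0675 to 0.369 with 1 kidney left out (-0.0666 without 16 min replicate 1) and Cd79b from -0.144 to 0.0456 (0.0173 and 0.0051 without 16 min replicate 1 and 2, and 0.044 without 30 min replicate 3), so no direction is given for either; the cause was not tested.

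By their labels same-numbered kidneys share a number, and no batch is given. Their deviations from the group means correlated at -0.083, 0.035 and 0.07, and those of different-numbered kidneys at -0.184 to 0.186. With means of 3 kidneys these values cannot exclude a shared batch. With the replicate block 1131 genes were DEGs (464 higher, 667 lower), all among the 1133, and of the 136 named DEGs only Timp1 lost its call (adjusted p 0.0509 against 0.0405 in limma). The depth is unknown, so no counting error can be given for low genes. An exact permutation test of 3 against 3 kidneys could not go below 0.1.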

Other observations

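Of the 1133 DEGs, 797 were in none of the gene lists, and the most abundant of them in each direction are given here as values. Kap, the androgen-regulated proximal tubule transcript with the highest mean over the 6 kidneys of all DEGs, stood at 31299, 18844 and 24504 FPKM at 16 min and 5423, 5071 and 7468 FPKM at 30 min and fell (-2.39 ± 0.21, adjusted p = 3.2e-08), against a sham mean of 48144 FPKM. Acy3, an aminoacylase of mercapturate handling, stood at 2509.7, 1856 and 1819.5 FPKM at 16 min and 231, 318 and 269 FPKM at 30 min (-2.86 ± 0.17), Miox, the oxygenase that begins inositol breakdown in the kidney, at 990.3, 1263 and 1842 FPKM at 16 min and 225, 162 and 169 FPKM at 30 min (-2.77 ± 0.29) and the aspartic protease Napsa at 1272, 806 and 1126 FPKM at 16 min and 173, 224 and 145 FPKM at 30 min (-2.4 ± 0.21). Keg1, a kidney-enriched acyltransferase relative, stood at 1402, 1181 and 1309 FPKM at 16 min and 282, 124 and 64.7 FPKM at 30 min (-3.25 ± 0.28). Its 30 min replicate 1 was the highest of the severe kidneys and replicate 3 the lowest. In each of these 5 genes the 2 groups did not overlap, which held for 1090 of all 1133 DEGs.

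Among higher DEGs outside the lists, the metallothionein Mt1 stood at 747, 715 and 253 FPKM at 16 min and 2785, 3726 and 3859.6 FPKM at 30 min (2.29 ± 0.32, adjusted p = 1.1e-05) beside Mt2, and 16 min replicate 3 was the lowest kidney in both. The other 3 were predicted genes with no entry in the RefSeq table used here. Gm46894 stood at 2003, 2662 and 1283 FPKM at 16 min and 7268, 8226 and 10069 FPKM at 30 min (1.73 ± 0.26), Gm42368 at 1617, 1706 and 1345 FPKM at 16 min and 4001, 4471 and 5275 FPKM at 30 min (1.14 ± 0.17) and Gm39972 at 623, 888 and 638 FPKM at 16 min and 1618, 1880.3 and 1955 FPKM at 30 min (1.0 ± 0.17). The fitted Gm39972 change lay at the fold threshold, and its call was lost in the fit without sham kidneys, without 16 min replicate 1 or 3 and without 30 min replicate 2 or 3. After quantile normalization the mean log2 level went from 10.64 to 11.78 for Gm42368 and from 9.52 to 10.52 for Gm39972. Both fitted changes are thus smaller than the FPKM values give, while the fitted fall of Kap is larger.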
